A study of Schizosaccharomyces pombe
Saccharomyces cerevisiae with 16 samples.

Results

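The small nucleolar RNA (snoRNA) and spliceosomal small nuclear RNA (snRNA) genes that RNA polymerase II transcribes were followed in budding yeast cells in which a subunit of Mediator was removed. The members were the genes with the biotype snoRNA or snRNA in the deposited tables, without snR52 and snR6, which RNA polymerase III makes. There were 80 such genes among 6859 genes in the table of newly synthesized RNA and 6805 in the table of total RNA. Of these, 72 were listed in both tables, and the other 8, all snoRNAs encoded in introns, only in the table of total RNA. By the files' descriptions and textbook classes, 4 members were snRNAs, 46 were box C/D snoRNAs and 29 were box H/ACA snoRNAs. The remaining member with the snoRNA biotype, NME1, is the RNA of RNase MRP and was kept apart from both boxes.

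Box C/D snoRNAs guide the methylation of ribose in ribosomal RNA, and box H/ACA snoRNAs guide the conversion of uridine to pseudouridine. A few snoRNAs, among them U3, U14 and snR30, are needed to cut the ribosomal RNA precursor, while the snRNAs form the catalytic core and the splice-site recognition units of the spliceosome. In yeast most of these RNAs come from short genes of their own, some from clusters cut out of a common precursor and some from introns, and the mature particles are stable compared with most mRNAs. Mediator, the complex in question, bridges activators and RNA polymerase II. Med14 forms its backbone and Med17 belongs to its head.

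Every strain was MATalpha Saccharomyces cerevisiae, expressed the plant F-box protein OsTIR1 from the GPD1 promoter and had either Med14 or Med17 fused to an IAA7 degron that auxin activates (the genotype labels give MED14-3V5-IAA7). For the Med17 samples, too, the genotype label gives the MED14 tag. Their strain and source labels give Med17, which was followed here. Cultures were treated for 30 min with 500 µM auxin or with DMSO alone, and all of them were then labelled with 5 mM 4-thiouracil for 6 min. Fission yeast (S. pombe) cells were added at a fixed proportion ahead of RNA extraction, and ribosomal RNA was removed before stranded libraries were made. The groups were auxin and DMSO of the Med14 strain and auxin and DMSO of the Med17 strain, each for newly synthesized (labelled, purified) RNA and for total RNA, with 2 biological replicates a group and 16 libraries in all. The degron acts on the protein, so the RNA of the tagged gene does not check the depletion.

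Libraries of newly synthesized RNA held 3.83 to 13.96 M counts and those of total RNA 3.30 to 8.84 M, and the members took 0.504% to 0.883% of the counts of newly synthesized RNA and 4.57% to 8.01% of those of total RNA. Of the members listed, 70 of 72 had enough counts to be tested in newly synthesized RNA and 73 of 80 in total RNA. snR7-L and snR73 were tested in neither, and snR10, snR59, snR60, snR72 and snR74 were not tested in total RNA. Levels are counts times the authors' constant per library, called normalized counts, and fold changes are on that scale. In newly synthesized RNA that scale put the median gene at a log2 fold change of -1.86 in the Med14 strain and -2.71 in the Med17 strain. TMM scaling, which assumes that most genes do not change, put it at 0.04 and -0.02. A direction given for a member is therefore relative to the authors' scale, and the position relative to the median gene is given beside it.

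In such bulk samples fewer cells and less RNA per cell cannot be told apart. A pair of libraries stood apart in the members. In total RNA of the auxin-treated Med17 strain, the 29 members of medium length (over 140 and up to 310 nt, mean count of at least 20) were all higher in replicate 2 than in replicate 1, with a median ratio of 3.51. The median ratio there was 1.05 for members of up to 140 nt and 1.12 for longer ones. In newly synthesized RNA of the auxin-treated Med14 strain, replicate 2 exceeded replicate 1 at median ratios of 1.40, 1.80 and 1.70 for the short, middle and long members. Results that rest on these libraries are given with and without them. The genes snR17a and snR17b encode near-identical copies of U3, so the split of reads between them is uncertain, as it is for snR39 and snR39B. By coordinates, 11 members overlap another listed gene, namely the 8 intronic ones with their hosts and snR10, snR17a and snR60 with YGL088W, YOR235W and YJL047C-A, and their reads cannot be told apart here because the counting is not given.

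The spliceosomal snRNAs lost most of their labelled RNA when either subunit was depleted. LSR1, the U2 snRNA (chromosome II, 680688 to 681862, sacCer3, 1175 nt), had 7326 and 9282 normalized counts with auxin against 41968 and 44319 in DMSO in the Med14 strain. The Med17 strain had 7629 and 7426 with auxin against 38692 and 39101 in DMSO. All auxin values of LSR1 lay far below all DMSO values in both strains, at 19.2% and 19.4% of DMSO. Its log2 fold changes were -2.38 ± 0.16 in the Med14 strain and -2.37 ± 0.16 in the Med17 strain (SE; edgeR quasi-likelihood, adjusted p = 3.11e-10 and 8.92e-11). On TMM scaling the LSR1 change stayed below 0 in the Med14 strain but stood at 0.30 in the Med17 strain.

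snR19, the U1 snRNA that pairs with the 5′ splice site (chromosome XIV, 230105 to 230672), had 953 and 1488 normalized counts with auxin against 10311 and 8239.6 in DMSO in the Med14 strain. For the Med17 strain the values were 924 and 839.7 with auxin against 7303 and 8118 in DMSO. snR14, the U4 snRNA that holds U6 until the spliceosome is activated (chromosome V, 167427 to 167586), had 50.4 and 68.3 with auxin against 715 and 703 in DMSO, and 44.4 and 51.9 with auxin against 472 and 445 in DMSO, in the Med14 and Med17 strains in that order. The groups of both snRNAs did not overlap in either strain. The log2 fold changes were -2.93 ± 0.19 and -3.13 ± 0.20 for snR19 and -3.58 ± 0.21 and -3.24 ± 0.21 for snR14 (SE), in the Med14 and the Med17 strain, and each passed the test. The fourth snRNA member, snR7-L, the long form of U5, had 1 to 3 raw counts in every library of newly synthesized RNA and 0 to 3 in total RNA, so no change could be read for it at this depth.

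**Figure D1:**
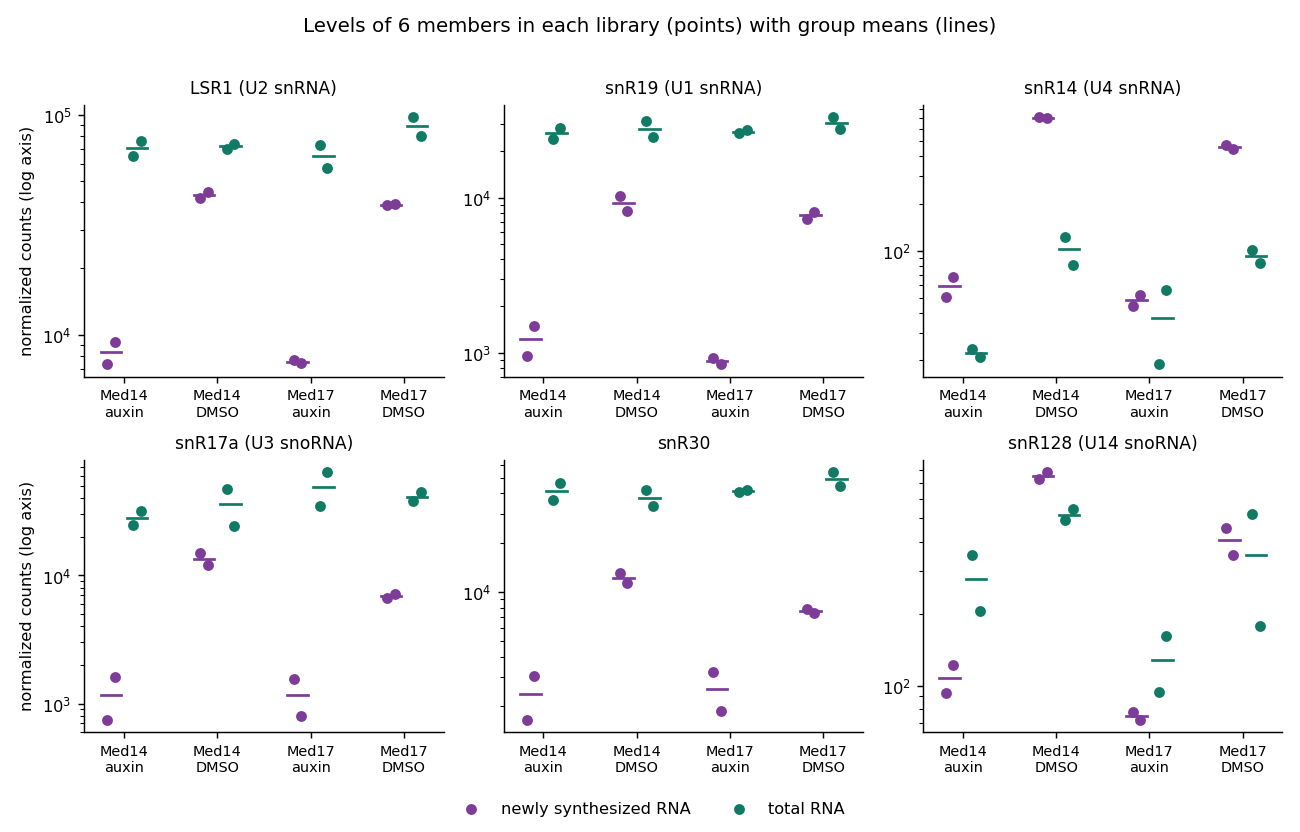
Normalized counts (log axis, different in each panel) of LSR1, snR19, snR14, snR17a, snR30 and snR128 in every library, with auxin left of DMSO for the Med14 and then the Med17 strain. Points are libraries and lines are means of 2 replicates. Newly synthesized RNA (purple) was lower with auxin in every panel, while total RNA (green) of LSR1, snR19, snR17a and snR30 overlapped DMSO in the Med14 strain and that of snR14 did not. On TMM scaling LSR1, snR17a, snR30 and snR128 of the Med17 strain lie above DMSO in newly synthesized RNA. The tables of newly synthesized and total RNA were scaled separately, so the heights of the colours cannot be compared.

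Nearly all snoRNAs fell in newly synthesized RNA as well. In the Med14 strain 68 of the 70 tested members were lower with auxin and 0 higher, beside 94.2% lower and 0.56% higher among all genes tested, and 3 snRNAs, 37 of 39 box C/D snoRNAs, 27 of 27 box H/ACA snoRNAs and NME1 made up that number. The count is near the background, but the size was larger than that of most genes: the median log2 fold change was -2.51 for box C/D and -2.79 for box H/ACA snoRNAs against -1.86 for all genes, and 60 of the 70 members lay below the median gene. Without auxin replicate 2 the member median was -3.15. After Med17 depletion 67 of 70 members fell and 0 rose, beside 95.0% lower and 1.7% higher among all genes, with medians of -2.37 for box C/D and -2.62 for box H/ACA snoRNAs. Here only 19 of the 70 members lay below the median gene, which was at -2.71. With TMM scaling the median of the 67 snoRNAs also tested on the authors' scale was -0.88 in the Med14 strain and turned to 0.13 in the Med17 strain, where 8 members were called lower and 16 higher. Of all 6082 genes tested there, 1781 were lower and 1791 higher.

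Among the snoRNAs that process the ribosomal RNA precursor, U3 and snR30 were abundant. U3, the core of the small-subunit processome, comes from snR17a and snR17b. snR17a (chromosome XV, 780107 to 780596, interrupted by an intron and 333 nt long in the table) had 747 and 1601 normalized counts with auxin against 14857 and 12048 in DMSO in the Med14 strain, and 1543 and 802 with auxin against 6619.8 and 7116 in DMSO in the Med17 strain. snR17b had 159.9 and 261 with auxin against 5230.1 and 3921 in DMSO in the Med14 strain, and 223 and 152 with auxin against 1867 and 1409 in DMSO in the Med17 strain. The auxin and DMSO libraries did not overlap for either copy. The log2 fold change of snR17b in the Med14 strain, -4.44 ± 0.25, was the lowest of all tested members, and that of snR17a was -3.52 ± 0.31. The Med17 strain gave -3.13 ± 0.24 for snR17b and -2.55 ± 0.30 for snR17a.

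snR30, the box H/ACA snoRNA required for 18S ribosomal RNA (chromosome XII, 198784 to 199389), had 1643 and 3053 normalized counts with auxin against 12999 and 11323 in DMSO in the Med14 strain. After Med17 depletion it had 3240.2 and 1849.8 with auxin against 7798 and 7361 in DMSO, which left 33.6% of the DMSO mean. snR128, which is U14 (chromosome X, 139566 to 139691), had 92.7 and 122 with auxin against 731 and 777 in DMSO in the Med14 strain, and 77.4 and 71.9 against 457 and 353 in the Med17 strain. Both snoRNAs were lower in each auxin library than in any DMSO library of their strain, at log2 fold changes of -2.37 and -2.81 after depletion of Med14 and -1.57 and -2.44 after that of Med17. The pseudouridylation guide snR10 had only 2 to 4 raw counts with auxin and 5 to 35 in DMSO, and its changes of -3.75 ± 0.64 and -2.87 ± 0.78 are imprecise. NME1, which trims the ribosomal RNA precursor as part of RNase MRP, changed by -3.26 ± 0.22 in the Med14 strain and -2.67 ± 0.21 in the Med17 strain.

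Among members with a mean count of at least 50, the lowest after snR17b in the Med14 strain were the box H/ACA guides snR31 (-4.08), snR8 (-3.71) and snR11 (-3.68) and the guide snR45 (-3.91). The lowest in the Med17 strain were snR32 (-3.58), snR68 (-3.55), snR49 (-3.47), snR39B (-3.38) and snR45 (-3.35). snR45, which directs acetylation of 18S ribosomal RNA rather than methylation, is thus in both lists: it had 50.4 and 59.1 normalized counts with auxin against 630.2 and 1008 in DMSO in the Med14 strain, and 35.8 and 46.6 against 439 and 411 in the Med17 strain. At the other end stood snR61 (-0.70 in the Med14 strain), snR71 (-1.60), snR84 (-1.64), snR86 (-1.84) and snR70 (-2.05), and in the Med17 strain snR61 (-0.53), snR66 (-0.93), snR30 (-1.57), snR4 (-1.69) and snR71 (-1.69).

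The members that did not pass the test were few. In the Med14 strain these were snR53, with 9.27 and 7.88 normalized counts with auxin against 19.7 and 10.1 in DMSO, and snR72, with 10.4 and 19.7 against 23.3 and 24.0. For the Med17 strain they were snR61, with 79.5 and 66.6 with auxin against 116.6 and 95.2 in DMSO, snR74, with 20.8 and 18.3 against 31.0 and 31.2, and snR72, with 17.9 and 13.0 against 12.7 and 5.95. Only snR72 in the Med17 strain was higher in both auxin libraries than in both DMSO libraries, at a log2 fold change of 0.75 ± 0.58 that did not pass the test (edgeR quasi-likelihood, adjusted p = 0.22).

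**Figure D2:**
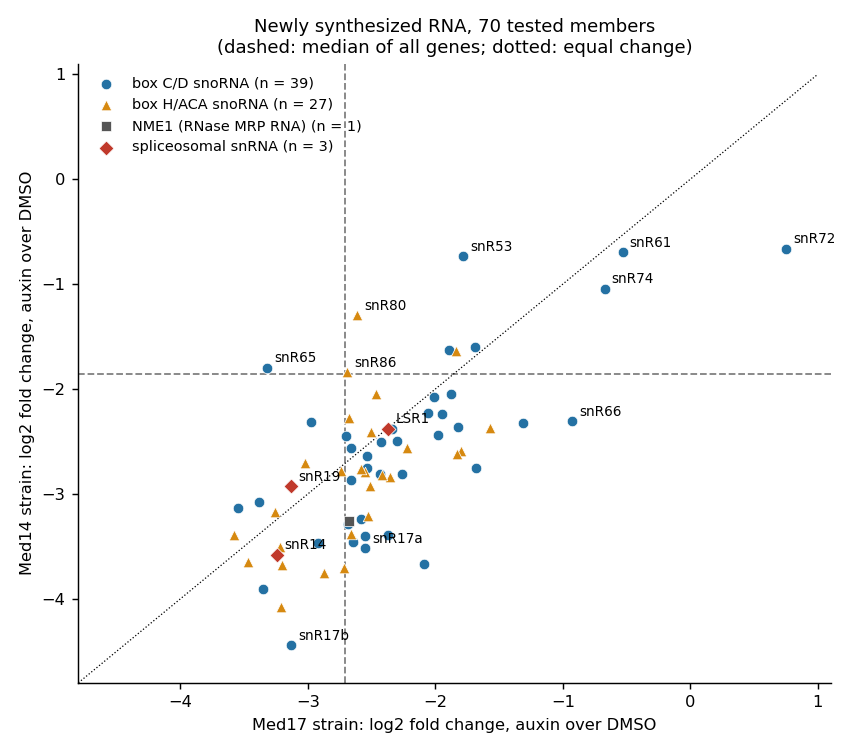
Log2 fold change of newly synthesized RNA, auxin over DMSO on the authors' scale, in the Med17 strain (horizontal) and the Med14 strain (vertical) for the 70 tested members, coloured by class. Most members lie below the median gene of the Med14 strain (-1.86) and right of that of the Med17 strain (-2.71). On TMM scaling the snoRNA median of the Med17 strain turns to 0.13. snR61, snR72 and snR74 lie at the upper right.

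All 4 members that did not pass belong to clusters of box C/D snoRNAs that are transcribed together. The place within a cluster was examined after these values had been seen. The files give no strand, so places follow the direction in which each cluster is known to be transcribed, which is that of rising coordinates on chromosomes XIII and V and of falling coordinates on the others. The largest cluster lies on chromosome XIII, with snR78 at 297278 and snR72 ending at 298651. From snR78 to snR72 the log2 fold changes in the Med14 strain were -3.29, -2.75, -2.50, -1.63, -1.05 and -0.66, leaving out snR73, the untested neighbour of snR72. Those in the Med17 strain were -2.69, -2.53, -2.42, -1.90, -0.67 and 0.75. The decrease was thus smaller at each step along the cluster in both strains. The members with small decreases also had low levels before depletion. Per kilobase these were 2173, 3492, 2906, 695.8, 505.3 and 241.6 in DMSO of the Med14 strain, in the same order. Place and starting level were not told apart. snR78 had 17.96 and 20.4 normalized counts with auxin against 223 and 155 in DMSO in the Med14 strain, without overlap, while the groups of snR72 given above lay close together and rested on 4 to 30 raw counts a library.

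The cluster of snR57, snR55 and snR61 on chromosome XII went the same way, at -2.49, -2.44 and -0.70 for Med14 and -2.30, -1.98 and -0.53 for Med17. snR61 had 85.1 and 153 normalized counts with auxin against 167 and 216 in DMSO in the Med14 strain, where the groups lay next to each other without overlap. The pair snR67 and snR53 on chromosome V had -2.56 and -0.73 for Med14 and -2.67 and -1.79 for Med17, but snR53 rested on 4 to 16 raw counts a library. The cluster of snR41, snR70 and snR51 on chromosome XVI showed no such order, at -2.24, -2.05 and -2.07 and at -1.95, -1.87 and -2.01. In the pair snR190 and snR128 the change was -3.45 and -2.81 for Med14 and -2.64 and -2.44 for Med17. The differences between neighbours within a strain were not tested, and place was not separated from the level in DMSO.

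**Figure D3:**
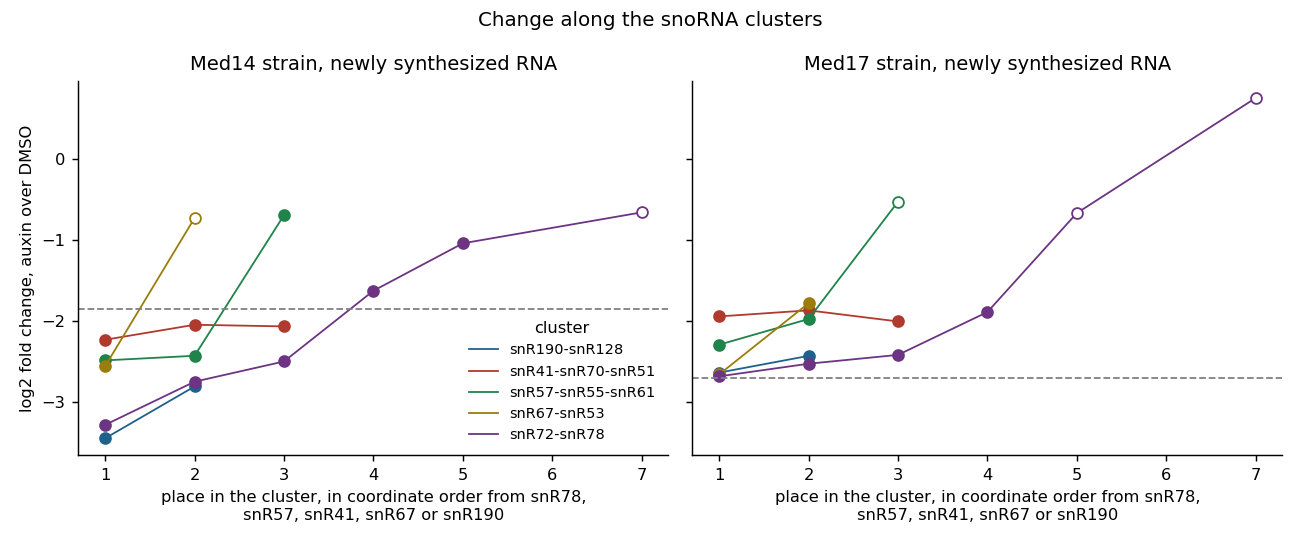
Log2 fold change of newly synthesized RNA, auxin over DMSO, for the snoRNAs of 5 clusters by their place in the direction of transcription, in the Med14 strain (left) and the Med17 strain (right). Filled points passed the test, open points did not, the dashed line is the median of all genes, and snR73, the sixth of its cluster, was not tested. Values run from -3.29 at snR78 to -0.66 at snR72 in the Med14 strain. With TMM scaling all values are higher by the shift of the median gene, and those of snR61, snR72, snR74 and snR75 are among the ones above 0 in both strains.

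The auxin effect of the strains was compared directly, as the change in the Med17 strain minus that in the Med14 strain. Most genes lost more labelled RNA in the Med17 strain, with a median difference of -0.82 and 59.6% called lower, 3.28% higher. The members did not follow: 3 of 70 were called lower and 8 higher, and 66 of 70 lay above the median gene, with a member median of 0.29. With TMM scaling, which sets the median gene near 0 in both strains, 41 were higher and 0 lower, beside 1098 higher and 1014 lower of 6082 genes. The snRNAs differed by 0.01 ± 0.22 for LSR1, -0.20 ± 0.26 for snR19 and 0.34 ± 0.29 for snR14 (SE), and none passed the test. The members called higher, which lost less in the Med17 strain, were the box C/D snoRNAs snR48 (1.57), snR66 (1.38), snR17b (1.31), snR4 (1.06), snR40 (1.02), snR17a (0.97) and snR190 (0.81) and the box H/ACA snoRNA snR8 (0.99). snR65 (-1.52), snR80 (-1.32) and snR86 (-0.85) were called lower.

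snR66 shows the pattern in its libraries. It had 78.8 and 40.7 normalized counts with auxin against 106 and 119 in DMSO in the Med17 strain, and 56.2 and 86.7 with auxin against 338 and 368 in DMSO in the Med14 strain. The auxin libraries of the strains overlapped, and the DMSO libraries of the Med17 strain lay far below those of the Med14 strain. snR86, one of the longest guides at 1004 nt, had 1591 and 2124 with auxin against 12012 and 12001 in DMSO in the Med17 strain, and 2653 and 3937 with auxin against 9826 and 13765 in DMSO in the Med14 strain. For snR86 the auxin libraries of the strains did not overlap, while the DMSO libraries did. The strain differences depended on single libraries. The snoRNA median, 0.29 with all libraries, was 0.67 without Med14 auxin replicate 2 and 0.05 without Med14 auxin replicate 1. The median of all genes was then -0.76 and -0.865. Without Med14 DMSO replicate 1 the snoRNA median was 0.33, and without Med17 auxin replicate 1 it was 0.21, beside -0.75 and -0.90 for all genes.

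The strains also differed before depletion. In DMSO, newly synthesized RNA of 48 of 70 members was lower in the Med17 strain than in the Med14 strain and 0 higher, beside 24.1% lower and 6.04% higher among all genes. The DMSO libraries are the same ones that enter the difference of the auxin effects, so the results are not independent. The medians were -0.94 for box C/D and -0.92 for box H/ACA snoRNAs and -0.21 for all genes, and 66 of 70 members lay below the median gene. The snRNAs stood closer to it, at -0.15 ± 0.16 for LSR1, -0.27 ± 0.18 for snR19 and -0.63 ± 0.19 for snR14, of which only snR14 passed. The lowest differences were those of snR81 (-1.67), snR66 (-1.65), snR69 (-1.61), snR17b (-1.48) and snR58 (-1.43), and the smallest that passed were those of snR70 (-0.50), snR14 (-0.63), snR41 (-0.68), snR30 (-0.68) and snR77 (-0.71).

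For U3 the strains did not overlap in DMSO: snR17a had 6619.8 and 7116 normalized counts in the Med17 strain against 14857 and 12048 in the Med14 strain. The summed snoRNAs of newly synthesized RNA in DMSO came to 62026 ± 736 in the Med17 strain against 100372 ± 2992 in the Med14 strain (SD, n = 2), and the summed snRNAs to 47068 ± 849 against 53131 ± 187. The direction was the same with TMM, at a median of -0.76 over the same 67 snoRNAs. The snoRNA median was -0.80 without Med14 DMSO replicate 2 and -0.89 without Med17 DMSO replicate 2, beside -0.14 and -0.15 for all genes. In total RNA few differences between the strains in DMSO passed the test: 2 of 73 members, snR66 (-0.85) and snR39B (-0.88), were called lower and 0 higher, beside 5.83% lower and 9.69% higher among all genes. The member median was -0.26 against 0.08 for all genes, and 62 of 73 members lay below the median gene, among them 38 of 41 box C/D snoRNAs, whose median was -0.47.

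**Figure D4:**
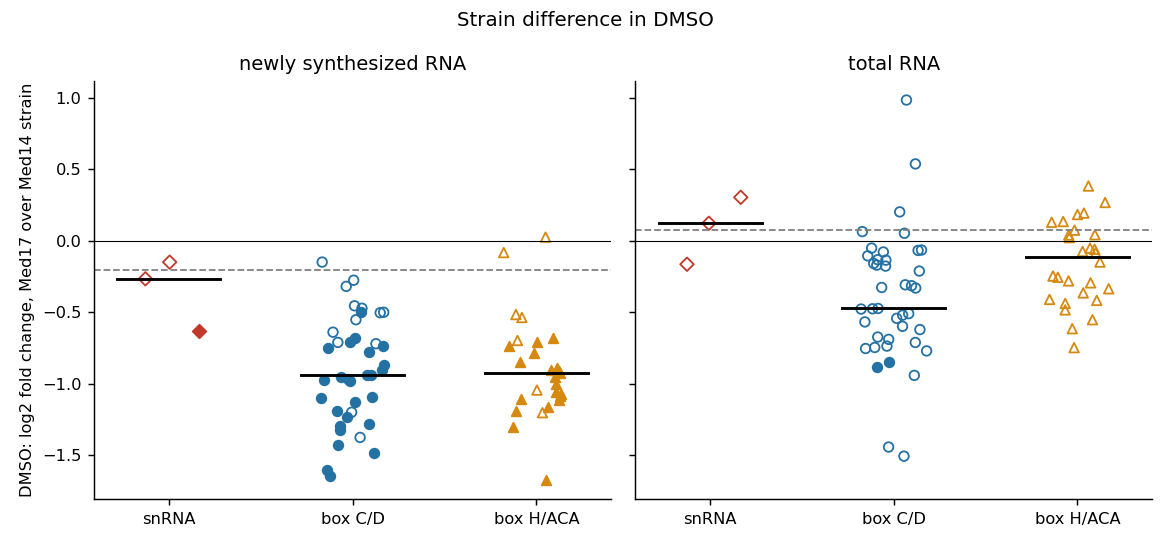
Log2 fold change of the Med17 over the Med14 strain in DMSO for newly synthesized RNA (left) and total RNA (right), by class. Points are members, filled where they passed the test, black bars are class medians and the dashed line is the median of all genes. In newly synthesized RNA the medians of both snoRNA classes lie near -0.9 while LSR1 and snR19 lie close to the median gene at -0.21.

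Total RNA of the members moved much less than their newly synthesized RNA. In the Med14 strain 29 of 73 members were lower with auxin and 0 higher, beside 75.1% lower and 1.62% higher among all genes. The size was close to that of other genes: the member median was -0.82 against -0.76 for all genes, and 39 of 73 members lay below the median gene. With TMM scaling 9 were lower and 6 higher, beside 1008 lower and 1102 higher of 5628 genes. The box C/D snoRNAs had a median of -1.24 with 26 of 41 lower, and the box H/ACA snoRNAs a median of -0.65 with 2 of 28 lower, against -0.76 for all genes. The counts of calls by class rest on the spread shared with the Med17 strain. Leaving out Med17 auxin replicate 1, or replicate 2 in its place, gave 28 of 44 box C/D and 18 of 28 box H/ACA snoRNAs lower, at medians of -1.17 and -0.65. LSR1 had 64881 and 75944 normalized counts with auxin against 70201 and 73762 in DMSO, and snR19 had 24059 and 28226 against 31401 and 24654. Their groups overlapped and their changes of -0.03 ± 0.14 and -0.10 ± 0.14 did not pass the test, whereas TMM scaling put them at 0.68 and 0.61. The short snRNA snR14 was the exception, with 23.6 and 20.8 against 123 and 81.5 and a change of -2.19 ± 0.43 (SE, edgeR quasi-likelihood, adjusted p = 0.000778).

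U3 and snR30 did not pass the test in total RNA of the Med14 strain. snR17a had 24834 and 31659.8 normalized counts with auxin against 47499 and 24386 in DMSO, and snR30 had 36669 and 46468 against 42202 and 33269.9. The groups of both overlapped. U14 (snR128), with 126 nt, stood at -0.89 in total RNA of the Med14 strain and was not called. In the Med17 strain it was called lower, at -1.405. Other short box C/D snoRNAs were called lower in the Med14 strain: snR39B, a guide of 96 nt, had 28.1 and 26.4 against 104 and 114 (-1.99 ± 0.23), and snR57 had 31.4 and 30.6 against 98.4 and 91.1 (-1.61 ± 0.22). With snR18 (-1.77), snR67 (-1.16) and snR62 (-1.71) these had the smallest p in that strain.

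Box class and length go together, since the box C/D members are 78 to 333 nt long with a median of 98 and the box H/ACA members 161 to 1004 nt with a median of 204. The members were therefore also split by length, at values chosen after the changes had been seen. In the Med14 strain 24 of 34 members of up to 140 nt fell in total RNA, with a median of -1.33, as did 5 of 29 of medium length, with a median of -0.69, and 0 of 10 longer ones, with a median of -0.15. With Med17 auxin replicate 1 left out, or replicate 2 in its place, these were 25 of 37, 22 of 29 and 0 of 10. The short and the middle class thus differ in their medians, then -1.30 and -0.69, and not in their share of calls. The longest class holds, among others, U3, snR30, snR37, snR86, LSR1 and snR19, and the snRNA that fell, snR14, has 160 nt. Across the 73 members, which share libraries and depth, Spearman's rho of length and change was 0.55. For newly synthesized RNA it was -0.32 over 70 members, and the medians of the same length classes were -2.46, -2.88 and -2.62, so the short members were not those that lost most labelled RNA. Length, class and abundance move together here and were not told apart. The length classes also differed in how much of them total RNA held. In DMSO of the Med14 strain the per-kilobase level in total RNA over that in newly synthesized RNA had medians of 0.18, 0.64 and 2.345. These cover 32 short, 27 middle and 10 long members. The tables were scaled separately, so only the classes can be compared. Whether short RNAs were recovered less well in total RNA was not tested.

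In the Med17 strain total RNA gave 25 of 73 members lower and 2 higher, beside 87.4% lower and 2.42% higher among all genes, but auxin replicate 2 weighed on it. The member median was -0.23, or -0.82 without that replicate, and with all libraries 14 of 73 members lay below the median gene. The members of up to 140 nt had a median of -1.24 with 23 of 34 lower, close to the median gene at -1.38. The members of medium length had a median of 0.50, with snR14 lower and snR31 and snR5 higher. snR31, a box H/ACA guide of 225 nt, had 841 and 4252 normalized counts with auxin against 784 and 998 in DMSO, and snR5 had 849.5 and 2281 against 838 and 888. In both cases replicate 2 alone was far above DMSO, and the changes of 1.51 ± 0.58 and 0.86 ± 0.35 became -0.09 and -0.02 without it. Without that library the medians were -1.37, -0.78 and -0.19 for the short, middle and long members, in the same order as in the Med14 strain. The median of all genes was then -1.36. Without replicate 1 in its place, the middle class had a median of 1.07, beside -1.38 for all genes.

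All groups share one estimate of the spread, and leaving out either auxin replicate of the Med17 strain raised the number lower in the Med14 strain to 47 of 76 tested. LSR1 had 72501 and 57460.1 with auxin against 97585 and 80104 in DMSO in the Med17 strain, a change of -0.45 ± 0.14 that passed the test with all libraries but not without auxin replicate 2 (-0.29) or DMSO replicate 1 (-0.30). snR19, with 26172 and 27411 against 33241 and 27782, changed by -0.19 ± 0.14 and did not pass. snR14 had 18.8 and 55.7 against 102 and 83.5 (-1.31 ± 0.36) and passed. The members with the smallest p among those lower were snR40 (-2.64), snR18 (-1.98), snR39B (-1.55), snR57 (-1.46) and snR67 (-1.20). With TMM the median of the 68 snoRNAs tested under both scalings was 1.09 in the Med17 strain, with 44 members called higher and 2 lower. Of all 5628 genes tested there, 1528 were higher and 1784 lower.

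**Figure D5:**
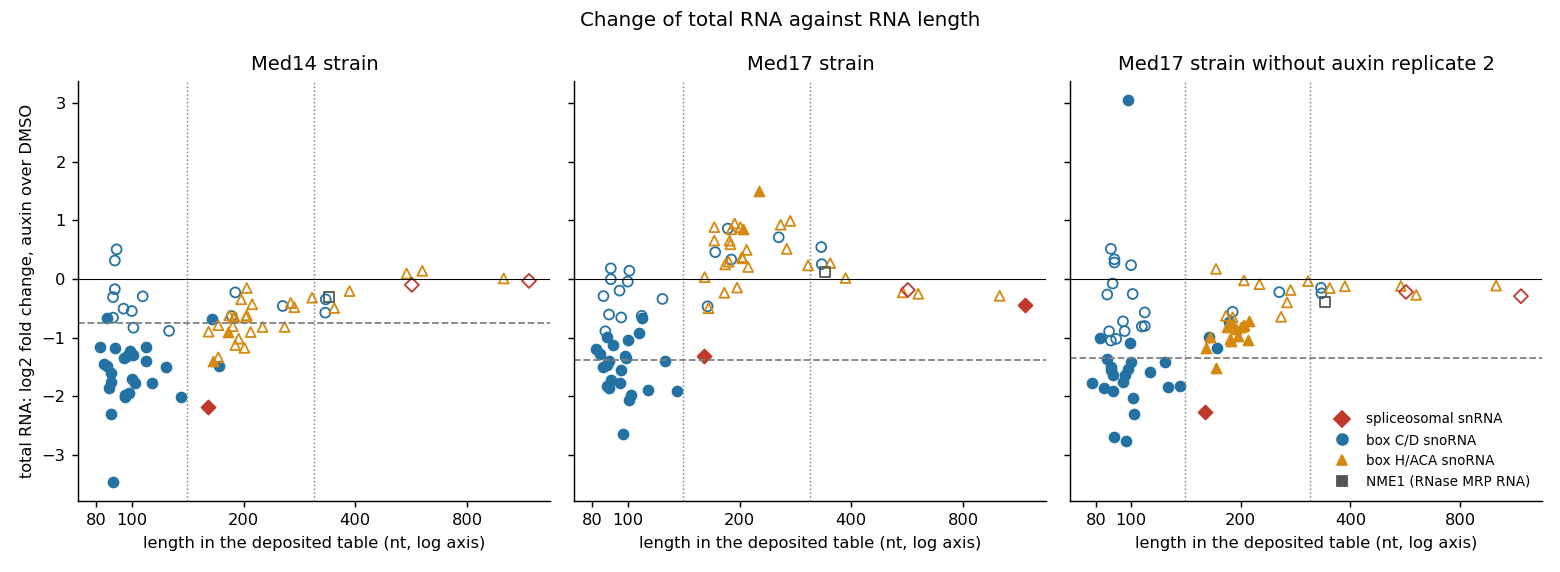
Log2 fold change of total RNA, auxin over DMSO, against RNA length (log axis) in the Med14 strain, the Med17 strain and the Med17 strain without auxin replicate 2. Filled points passed the test, the dashed line is the median of all genes and dotted lines mark the length classes. Members of up to 140 nt lie lowest in all panels, and the middle class lies at a median of 0.50 with and -0.78 without the replicate. With TMM scaling the values shift up, to 1.09 for the snoRNA median of the Med17 strain.

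The difference of the strains' changes in total RNA was called for 0 members lower and for 3 higher, beside 41.3% and 1.23% of all genes. These were snR31 (2.33), snR5 (1.47) and snR80 (1.44), the last a guide with 75.2 and 136 normalized counts with auxin against 60.8 and 70.7 in DMSO in the Med17 strain and 44.9 and 36.1 against 94.1 and 47.2 in the Med14 strain. The member median of this difference, 0.56 with all libraries, was 0.105 without Med17 auxin replicate 2 and 0.88 without Med17 auxin replicate 1. The median of all genes was then -0.53 and -0.56.

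The 8 snoRNAs encoded in introns were measured in total RNA only, and 7 were tested. Their hosts are the translation factor genes EFB1 (snR18) and TEF4 (snR38), the ribosomal protein genes RPL7A (snR39), RPL7B (snR59) and RPS22B (snR44), ASC1 (snR24), which encodes a ribosome-bound signalling scaffold, NOG2 (snR191), a ribosome assembly factor, and YML056C (snR54). snR18 had 51.6 and 27.8 normalized counts with auxin against 154 and 124 in DMSO in the Med14 strain, and 22.6 and 34.4 against 115 and 110.5 in the Med17 strain. It fell by 1.77 and 1.98 on the log2 scale, while its host EFB1 fell by 0.55 and 0.33. snR38 (-1.35 and -1.78) and snR54 (-1.48 and -1.50) fell in both strains too, where TEF4 stood at -0.24 and -0.31 and YML056C at -0.73 and -0.13.

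snR24 rested on 0 and 1 raw counts with auxin in the Med14 strain against 11 and 4 in DMSO, so that its called decrease there is imprecise. The intronic box H/ACA snoRNAs, which are longer, did not pass with all libraries: snR44 stood at -0.43 and 0.20, though at -0.72 and called lower in the Med17 strain without auxin replicate 2, and snR191 at -0.48 and 0.99, and their hosts RPS22B and NOG2 fell by 0.48 and 0.57 and by 1.27 and 0.90. snR191 had 2113 and 7464 with auxin against 2342 and 2474 in DMSO in the Med17 strain, with replicate 2 alone above DMSO. Among labelled transcripts all 8 hosts fell in both strains, with a median of -2.76 in the Med14 strain and -2.61 in the Med17 strain. snoRNA and host cannot be separated with certainty because their coordinates overlap.

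The change of newly synthesized RNA was set against that of total RNA in a joint fit of the 16 libraries, which asks whether labelled RNA fell more than the RNA present. In the Med14 strain 55 of 70 members fell more in newly synthesized RNA and 0 less, beside 79.6% and 0.0165% of all genes, with a median difference of -1.87 against -1.05. These were 53 of 70 and 0 in the Med17 strain, beside 84.1% and 0.281%, at -2.21 against -1.34. With TMM scaling 8 members of the Med14 strain and 17 of the Med17 strain were called lower, beside 643 and 873 of 6092 genes. The lowest called differences in the Med14 strain were those of snR17b (-3.87), snR31 (-3.26), snR190 (-3.22), snR17a (-3.17) and snR83 (-3.06), and in the Med17 strain those of snR31 (-4.73), snR32 (-4.23), snR3 (-4.16), snR11 (-4.13) and snR5 (-3.88). These 5 are of medium length, and without total RNA auxin replicate 2 of the Med17 strain they stood at -3.13, -2.51, -2.36, -2.56 and -3.00, in that order, all still called, behind snR65 at -3.55. LSR1 differed by -2.35 ± 0.22 and -1.92 ± 0.22 and snR19 by -2.83 ± 0.27 and -2.94 ± 0.27 (SE), in the Med14 and the Med17 strain. The smallest called differences in the Med14 strain were those of the short snoRNAs snR57 (-0.89), snR62 (-0.93), snR77 (-0.999), snR61 (-1.01) and snR39B (-1.09). Those in the Med17 strain were -1.08 for snR51, -1.21 for snR47, -1.32 for snR30, -1.40 for snR70 and -1.46 for snR67. The short class as a whole had a median of -1.29 and -1.25, the middle class of -2.13 and -2.96 and the long class of -2.43 and -2.60. The middle class of the Med17 strain, which held the library that stood apart, had -1.94 without it.

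Spliceosomal snRNAs were set against snoRNAs as sums of normalized counts over the 72 members listed in both tables, which leaves out the 8 intronic snoRNAs. With 2 libraries a group no exact test can pass 0.05, and none was made. For newly synthesized RNA of the Med14 strain the snRNAs summed to 9585 ± 1774 with auxin against 53131 ± 187 in DMSO (18.04%), and the snoRNAs to 16302 ± 6612 against 100372 ± 2992 (16.2%). Sums in the Med17 strain were 8459 ± 199 against 47068 ± 849 for snRNAs (17.97%) and 11922 ± 1480.2 against 62026 ± 736 for snoRNAs (19.2%). The snRNA sum as a percentage of the snoRNA sum was 61.7% ± 14.1 with auxin against 53.0% ± 1.39 in DMSO in the Med14 strain, and 71.4% ± 7.20 against 75.9% ± 2.27 in the Med17 strain, and the groups overlapped in both. LSR1 made up most of the snRNA sum and its part grew, at 86.8% ± 1.63 against 81.2% ± 2.84 in the Med14 strain and 89.0% ± 0.386 against 82.6% ± 0.876 in the Med17 strain, all auxin libraries lying above all DMSO libraries. Among the snoRNAs the ratio of box H/ACA to box C/D counts was 2.82 ± 0.172 with auxin against 1.72 ± 0.235 in DMSO in the Med14 strain, without overlap, and 2.67 ± 0.403 against 2.35 ± 0.0602 in the Med17 strain, with overlap. A few abundant RNAs lead these sums. Without U3, snR30, snR37 and snR86 the snoRNA sum in DMSO of the Med14 strain was 42899.5. Gene by gene the classes stood the other way in that strain, at medians of -2.51 for box C/D and -2.79 for box H/ACA snoRNAs.

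In total RNA the snRNA sum was 96577 ± 10767 with auxin against 100112 ± 2280.1 in DMSO in the Med14 strain and 91809 ± 9733 against 119450.0 ± 16233 in the Med17 strain, where the auxin libraries lay below. The snoRNA sum was 165711 ± 29234 against 185863 ± 43799 and 213610.0 ± 50101 against 207245 ± 10506, with overlap in both strains. Per kilobase, the authors' levels of newly synthesized RNA in DMSO were highest for snR17a, snR37 and LSR1 in the Med14 strain, at 40399 ± 5964, 40123 ± 5552 and 36718 ± 1415, which their spread does not separate. LSR1 came first in the Med17 strain, at 33103 ± 247, before snR37 at 28060.1 ± 1071 and snR17a at 20624 ± 1053. With auxin the order was LSR1, snR37, snR30 and snR17a in the Med17 strain, from 6406 ± 123 to 3521 ± 1573, and snR37, LSR1, snR30 and snR17a in the Med14 strain, from 7570.2 ± 4543 to 3525 ± 1812. LSR1 stood clear of snR37 at 4942 ± 205 in the Med17 strain. In the Med14 strain LSR1, at 7068 ± 1177, stood clear of snR30 at 3874 ± 1645. The other neighbours in both orders overlapped.

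Those genes for proteins of these particles, and for factors that make or bind them, that were found fell along with nearly all genes in newly synthesized RNA. Of 71 names listed, 41 were found in the files. These held 3 of 8 core proteins of snoRNA particles, all of box C/D particles, and 3 of 9 assembly factors. In newly synthesized RNA 41 of 41 were lower in both strains on the authors' scale, beside 94.2% and 95.0% of all genes. Their medians were -1.58 in the Med14 strain and -2.43 in the Med17 strain, less far below 0 than those of all genes at -1.86 and -2.71. NOP1, the methyltransferase of box C/D particles, stood at -2.35 and -2.62, and its partners NOP56 and NOP58 at -2.08 and -2.31 after Med14 depletion and -2.23 and -2.38 after Med17 depletion. The 7 Sm proteins, which form the ring on snRNAs, had medians of -1.68 and -2.56. TBF1, a factor known to bind the promoters of many yeast snoRNA genes, stood at -2.18 and -2.69. In total RNA 31 of the 41 were lower in the Med14 strain and 38 of 41 in the Med17 strain, beside 75.1% and 87.4% of all genes, with medians of -0.61 and -1.02 against -0.76 and -1.38. The exceptions included PRP8 and SEN1 in both strains.

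For contrast, snR52, the box C/D snoRNA that RNA polymerase III transcribes, had 744 and 452 normalized counts of newly synthesized RNA with auxin against 124 and 125 in DMSO in the Med17 strain. It rose by 2.26 ± 0.33 there on the authors' scale, and in the Med14 strain, with 297 and 636 against 752 and 529.7, it changed by -0.46 ± 0.29 and did not pass. The DMSO libraries of the Med17 strain lay far below those of the Med14 strain for snR52, while the auxin libraries of the strains overlapped. The excluded snRNA snR6 is not shown here. None of the 70 members that RNA polymerase II transcribes was called higher in either strain on the authors' scale.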

How the data were processed

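Newly synthesized (4-thiouracil-labelled) and total RNA of 16 libraries were used. The authors deposited raw counts per gene and, beside them, a signal, which the files show to be the count times 1 constant per library, and gene length; the sources used here do not say how the constants were found. The submitters' processing notes name bcl2fastq 2.17.1.14 and the build sacCer3. Aligner, counter, strand setting and annotation version: not given in the sources used here. Raw counts were fitted with edgeR 4.0.16 (quasi-likelihood, R 4.3.3), with the deposited constants as scaling and 1 mean per group, separately for newly synthesized and total RNA and jointly for their difference. Genes passed edgeR's filter on low counts, p-values were adjusted over all genes tested (Benjamini-Hochberg), and a gene was called at an adjusted p under 0.05. P-values rest on 1 spread per gene, estimated from the replicates of all groups in a fit (2 a group) and drawn toward that of other genes. In simulated counts for Med14 auxin against DMSO, 100 genes were changed 2-fold and 100 changed 4-fold, with the same dispersion for every gene. Of these, 92% and 100% were called in newly synthesized RNA (5995 genes) and 79% and 99% in total RNA (5559 genes). The simulation held no shift of most genes and no larger spread of single members. Its shares therefore do not carry over to the members.

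The members, classes, lists and clusters were chosen with earlier results of these data known. The text names the snRNAs, U3, U14, snR30 and snR10, members not called lower, the 5 lowest and 5 highest changes in newly synthesized RNA among members whose mean count reached 50, and members called in total RNA or between strains (5 a direction where more than 10 were called). It also names intronic snoRNAs with their hosts and members of clusters. Alternatives were TMM and median-of-ratios scaling, other filters, DESeq2 1.42.0, the replicate number as a block and leaving out each library. Sequences and promoter motifs were not analysed here.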

Additional observations from a re-analysis of the deposited data

Results flagged for a closer look

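The auxin effect on newly synthesized RNA differed between the strains, for 11 members. The test was edgeR's quasi-likelihood test of the change in the Med17 strain minus that in the Med14 strain, with Benjamini-Hochberg adjustment. The log2 differences were -1.52 for snR65, -1.32 for snR80, -0.85 for snR86, 0.81 for snR190, 0.97 for snR17a, 0.99 for snR8, 1.02 for snR40, 1.06 for snR4, 1.31 for snR17b, 1.38 for snR66 and 1.57 for snR48. In total RNA the same test called 3 members, with differences of 1.44 for snR80, 1.47 for snR5 and 2.33 for snR31. snR80 is in both sets with opposite signs. It had 8.59 and 14.7 normalized counts of newly synthesized RNA with auxin against 78.3 and 68.4 in DMSO in the Med17 strain, and 22.6 and 40.7 against 80.8 and 74.6 in the Med14 strain. The total RNA calls were absent without auxin replicate 2 of the Med17 strain.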

How the results depend on the processing

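The scaling moved these results most. With TMM and median-of-ratios scaling, in that order, newly synthesized RNA had 43 and 44 members lower and 3 and 3 higher in the Med14 strain. The Med17 strain had 8 and 7 lower and 16 and 17 higher. The strain difference of newly synthesized RNA had 0 and 0 lower and 41 and 44 higher. Total RNA had 9 and 9 lower and 6 and 6 higher in the Med14 strain, and 2 and 1 lower and 44 and 46 higher in the Med17 strain. Its strain difference had 5 and 8 higher, and its DMSO difference 4 and 4 lower. Newly synthesized minus total change had 8 and 8 lower for Med14 and 17 and 20 for Med17, with 1 higher for Med17 under TMM.

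Directions turned under TMM and median-of-ratios as follows. Only named members called on the authors' scale or on the other scaling are listed. Sign changes of members called on neither are left out. In newly synthesized RNA of the Med14 strain the values were snR61 1.17 and 1.15, snR71 0.28 and 0.25, snR72 1.201 and 1.18, snR74 0.83 and 0.80, snR75 0.24 and 0.22, snR84 0.24 and 0.22, and snR86 0.037 and 0.014. In the Med17 strain they were 0.13 and 0.15 for the snoRNA median, LSR1 0.30 and 0.32, snR128 0.24 and 0.26, snR17a 0.088 and 0.11, snR190 0.010 and 0.035, snR30 1.07 and 1.097, snR4 0.97 and 1.00, snR41 0.72 and 0.75, snR51 0.64 and 0.67, snR53 0.83 and 0.86, snR55 0.68 and 0.71. Further members there were snR57 0.37 and 0.40, snR61 2.13 and 2.156, snR66 1.71 and 1.74, snR67 0.0044 and 0.030, snR70 0.79 and 0.81, snR71 0.99 and 1.02, snR74 1.98 and 2.01, snR75 0.76 and 0.79, snR76 0.24 and 0.26, snR77 0.13 and 0.15, and snR78 0.0038 under median-of-ratios, where the strain difference of snR86 was 0.0005. In total RNA LSR1 had 0.68 and 0.72 and snR19 0.61 and 0.64 in the Med14 strain. In the Med17 strain the snoRNA median was 1.09 and 1.19, LSR1 0.81 and 0.90, snR19 1.07 and 1.17, snR30 1.01 and 1.102, snR67 0.055 and 0.15, and snR14 0.034 under median-of-ratios. For newly synthesized minus total change the values were snR39B 0.099 and 0.030, snR57 0.29 and 0.22, snR61 0.16 and 0.090, snR62 0.24 and 0.18, and snR77 0.18 and 0.11 in the Med14 strain. In the Med17 strain they were snR47 0.21 and 0.13 and snR51 0.35 and 0.27, and under TMM snR30 0.083 and snR70 0.0073.

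With a mean count of at least 50 the strain difference of newly synthesized RNA had 1 lower, total RNA 10 lower in the Med14 strain and 9 in the Med17 strain, where the snoRNA median was 0.25, and the DMSO difference of total RNA 1 lower. With no filter, total RNA had 4 higher in the Med17 strain and 6 in the strain difference. DESeq2 gave 1 lower in the strain difference of newly synthesized RNA, 0 higher in total RNA of the Med17 strain, 1 higher in its strain difference and 0 lower in its DMSO difference. Without both libraries labelled (2), the strain difference of newly synthesized RNA had 20 higher. For counts that moved by filter or tool, the cause was not tested.

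Leaving out 1 library at a time gave, in newly synthesized RNA, 66 to 68 lower in the Med14 strain, 64 to 68 in the Med17 strain, 0 to 6 lower and 2 to 22 higher in the strain difference, and 22 to 53 lower in DMSO. In total RNA it gave 21 to 47 lower in the Med14 strain, 19 to 38 lower and 1 to 26 higher in the Med17 strain, 0 to 3 lower and 0 to 28 higher in the strain difference, and 0 to 5 lower in DMSO. Newly synthesized minus total change gave 42 to 56 lower in the Med14 strain and 49 to 54 in the Med17 strain. In total RNA of the Med17 strain the snoRNA median was 0.048 without DMSO replicate 1, and without auxin replicate 2 the median was -0.83, snR31 was -0.088, snR44 -0.72 and snR5 -0.024. Without auxin replicate 1 these members were at 2.25, 0.77 and 1.40. The ranges of calls show how far the counts moved and were not set against all genes. The total RNA strain difference had 0 higher also without Med14 DMSO replicate 1 and 9 without Med14 DMSO replicate 2.

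Deviations of same-numbered auxin and DMSO libraries of a strain correlated at 0.43 and 0.18 in newly synthesized RNA and 0.13 and 0.27 in total RNA (Med14, Med17), and those of libraries of different strains at -0.36 to 0.049. The labels do not say what the numbers share, and with 2 pairs a comparison they were not taken as pairs. With the replicate block, 68 and 67 members were lower in newly synthesized RNA after depletion of Med14 and of Med17, and 1 was lower in the DMSO difference of total RNA. With a replicate block within each strain, added after the data were seen, 68 and 68 were lower, the strain difference of newly synthesized RNA had 16 higher, among them the 8 called without the block, and that of total RNA had LSR1 lower and snR5 and snR80 higher, without snR31. Depth limits snR7-L, snR73, snR10, snR24 and snR72, which rest on few reads.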
